A study of Mus musculus with 6 samples.

Results

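The genes described here are 48 genes of the integrated stress response and the unfolded protein response, chosen by name out of 49671 Ensembl genes counted in differentiated mouse preadipocytes. The choice was made with earlier results of these data known. They fall into 24 genes of ATF4 and amino acid metabolism and 24 genes of protein folding in the endoplasmic reticulum (ER). All 48 were found in the table and all passed the filter on low counts. Expression was compared between cells treated to switch on a Cre recombinase aimed at Tcf7l2, a transcription factor gene of the TCF/LEF family, and cells of the same line left without that treatment. Knockout cells (labelled as Tcf7l2 knockout, 3 libraries) received 4-hydroxytamoxifen for 24 h, applied 2 days ahead of differentiation, and control cells (labelled wild type, 3 libraries) received ethanol on the same schedule. Both groups carry floxed Tcf7l2 alleles, SV40 large T antigen and CreERT2, a Cre that 4-hydroxytamoxifen switches on, and both derive from inguinal fat of C57BL/6 mice aged 3 months. Cells were sorted for CD34, Sca1 and CD29 and against CD31, CD45 and Ter-119 before immortalisation, and were differentiated to day 8 with dexamethasone, isobutylmethylxanthine and insulin. The labels add 5 nM of an agent under codes from W1929 to W1934, 1 code per library, with the higher 3 codes in the knockout group. Deletion, drug and code number therefore cannot be told apart. The libraries come from 1 immortalised line, and no label says that they were separate cultures, so p-values measure the spread between libraries, which may be technical.

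The integrated stress response is set off when kinases that sense amino acid shortage, viral RNA, haem loss or ER stress phosphorylate the translation factor eIF2. Most translation then falls, while that of ATF4 rises, and ATF4 switches on genes for amino acid uptake and synthesis. The unfolded protein response is the ER's own programme, run by the sensors PERK (Eif2ak3), IRE1 (Ern1) and ATF6, which raises chaperones, disulfide-forming enzymes and degradation factors. PERK joins the programmes, because it phosphorylates eIF2. Adipocytes and their precursors secrete collagen and adipokines, a load that passes through the ER. RNA counts do not show eIF2 phosphorylation, ATF4 protein or the splicing that activates Xbp1.

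Total counts ran from 26764263 to 31520011 in knockout libraries and from 26621293 to 33484764 in control libraries. Tcf7l2 was at 5.65, 6.85 and 5.86 CPM (reads scaled to a common library size) in knockout libraries, against 7.71, 6.13 and 9.11 CPM in control libraries. The groups overlapped, and by edgeR the log2 fold change of -0.32 (SE 0.14) had an adjusted p of 0.125 and was not called. Since the count covers all exons and not the floxed ones alone, it does not check the labels. Knockout replicate 2 and control replicate 3 stood apart from the other 4 libraries on the second principal component (15.9% of variance, scores of -14.1 and -15.1, against 4.05 to 12.0 for the rest). Adipocyte markers moved with the comparison: 9 of 10 were called higher, with summed levels of 10642 to 12752 CPM in knockout and 7973 to 8237 CPM in control libraries. Lpl was the adipocyte marker not called (log2 fold change 0.036). Of 8 proliferation markers, 5 were called lower (912 to 982 CPM summed in knockout, 1067 to 1192 CPM in control libraries). Among all genes tested, 11.9% were called higher and 10.5% lower. Of 9 preadipocyte markers, Thy1 alone was called, 1.1-fold lower (a call lost in 9 of 14 alternative fits), and the sums overlapped (3613 to 3735 and 3567 to 3782 CPM). These sums include Ly6a, which encodes Sca1, at 918 ± 86.1 CPM in knockout and 671 ± 115 CPM in control libraries (SD, n = 3 each; edgeR adjusted p = 0.0539, called in 7 of 14 alternative fits). Leukocyte markers summed to at most 5.71 CPM in knockout and 5.45 CPM in control libraries, led by Csf1r, with Adgre1 and Cd3e at 0 in all 6. Endothelial markers summed to 27.0 to 28.3 CPM in knockout and 23.7 to 25.7 CPM in control libraries, nearly all from the receptor genes Kdr and Tek, with Cldn5 at 0. Of the 3 endothelial markers tested, Kdr alone was called. It was higher, at 17.6 CPM in knockout and 13.6 CPM in control libraries (edgeR adjusted p = 0.00363), and was called in all 14 alternative fits. Of 6 erythroid markers, the 4 globin genes were at 0 in every library. The part of differentiation and proliferation in the results below was not tested, and in bulk RNA fewer cells of a type and less RNA per cell cannot be told apart.

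Of the 24 ATF4 and amino acid genes, 16 fell in knockout cells, 0 rose and 8 were not called. Those that fell include Trib3, a pseudokinase gene, Slc7a11, which imports cystine, and Aldh1l2, a mitochondrial folate enzyme. The falls were steps of 1.13-fold to 1.78-fold. Of the 24 ER folding genes, 7 fell, 1 rose and 16 were not called, and the falls numbered 3 without knockout replicate 3 and 2 without control replicate 1. Among all 14946 genes tested, edgeR called 22.4% at an adjusted p under 0.05, 10.5% lower and 11.9% higher. More of the abundant genes were called: among the 5908 whose log2 CPM averaged 5 or more, the shares were 31.5% in all, 17% lower and 14.5% higher. At that level of abundance, 14 of 20 ATF4 and amino acid genes and 6 of 20 ER folding genes were lower. The median log2 fold change was -0.27 for the ATF4 and amino acid genes and -0.12 for the ER folding genes, beside -0.0017 for all genes tested. The 16 falls among the ATF4 and amino acid genes became 15 without knockout replicate 3 and 14 without control replicate 1. Without knockout replicate 2 and control replicate 3 together, 19 ATF4 and amino acid genes and 9 ER folding genes fell. The difference between the gene sets was not tested.

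The replicates of most of these genes lay close together. In 17 ATF4 and amino acid genes and 15 ER folding genes, every knockout library was below every control library, which held for 19.3% of all genes tested. Dnajb9 alone had every knockout library above every control library, which held for 18.5%. Of the 48 genes, 40 were abundant, and these shares were not computed for the abundant genes alone. A total of 8 ER folding genes, among them Hsp90b1, Dnajc3 and Pdia6, kept their groups apart with a difference too small to be called. Among all genes tested, 19.3% were apart lower and 18.5% apart higher but 22.4% were called, so genes apart without a call occurred there too. Their share was not counted, and the 8 genes cannot be set against it.

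**Figure D1:**
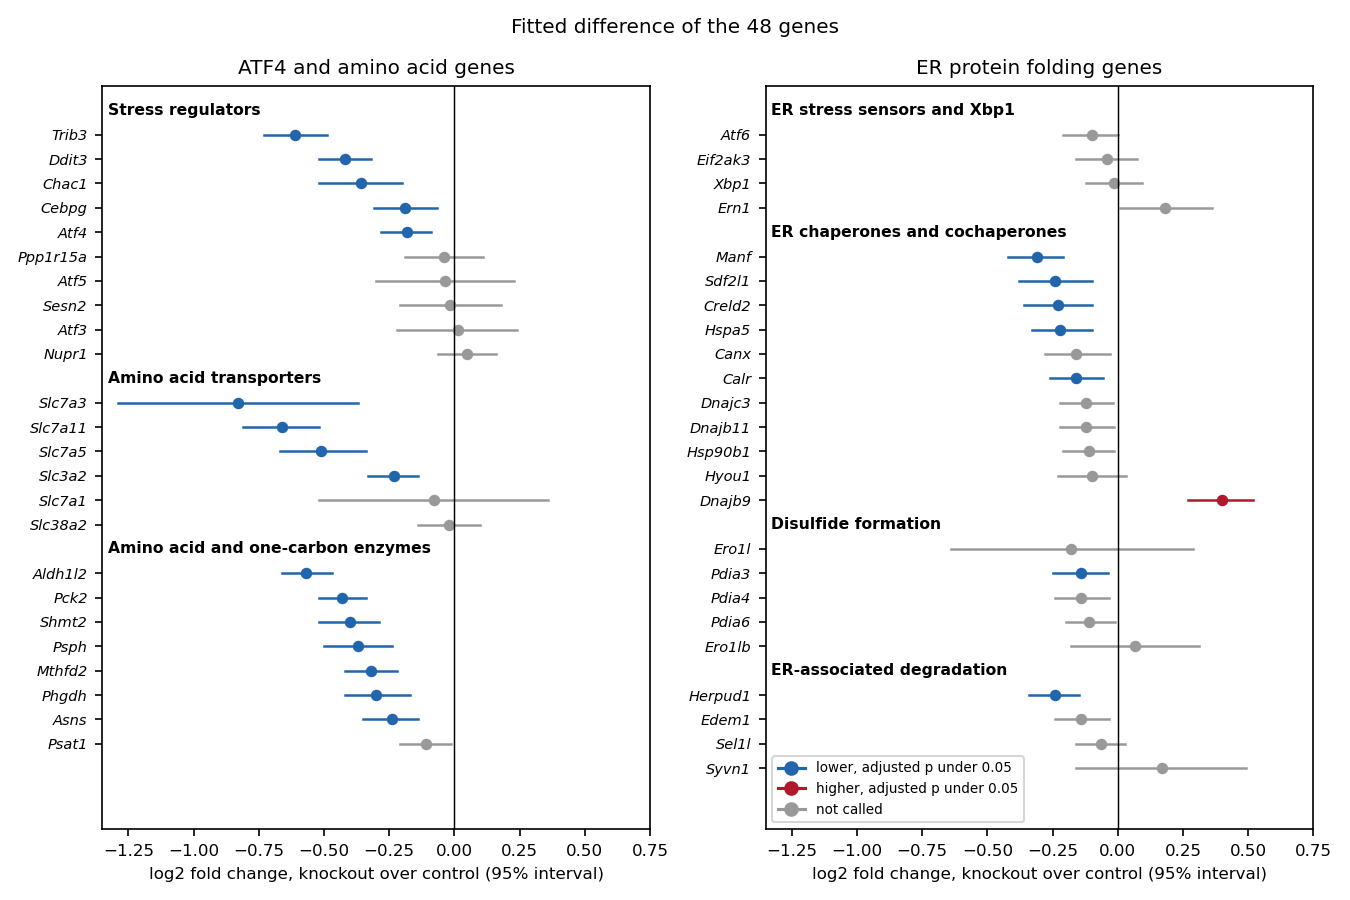
Fitted log2 fold change (knockout over control, horizontal axis) of each of the 48 genes with its 95% interval, grouped by role; blue points are called lower, red higher and grey not called. The 16 called ATF4 and amino acid genes lie between -0.83 and -0.18, and Dnajb9 at 0.40 is the called gene to the right of 0.

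Promoter sequences are shown because the 2 sets of genes carry different known response elements near their starts. RefSeq windows (GRCm38.p6, 250 bases before to 50 after a start) were found for 42 of the 48 genes. Slc7a5, Aldh1l2, Slc7a3, Atf6, Hyou1 and Manf had none in the table. The core of the C/EBP-ATF response element, TGATGNAA on either strand, was in windows of 7 of 21 ATF4 and amino acid genes and 1 of 21 ER folding genes, against 4.51% of all genes. The ER stress response element, CCAAT and CCACG with any 9 bases between them, on either strand, was in 9 of 21 ER folding genes and 0 of 21 ATF4 and amino acid genes, against 0.137% of all genes. The unfolded protein response element core, TGACGTGG, was in none of the 42 genes' windows and in 0.714% of all genes. A match is a stretch of letters, and says nothing of binding in these cells. The first lines below hold TGATGNAA or its reverse complement in capitals, read 5′ to 3′ on the gene's strand, for the genes that fell.
Trib3 (chr2:152344034-152344051, minus strand): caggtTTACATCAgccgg
Chac1 (chr2:119351029-119351076, plus strand): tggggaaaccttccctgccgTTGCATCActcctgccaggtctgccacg
Slc7a11 (chr3:50443633-50443699, minus strand): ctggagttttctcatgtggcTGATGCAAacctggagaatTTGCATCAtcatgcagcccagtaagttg
Asns (chr6:7693220-7693237, minus strand): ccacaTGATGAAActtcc
Pck2 (chr14:55540143-55540190, plus strand): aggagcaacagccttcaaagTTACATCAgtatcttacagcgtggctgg
Herpud1 (chr8:94386297-94386344, plus strand): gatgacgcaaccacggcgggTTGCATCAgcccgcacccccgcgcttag
The Slc7a11 stretch held the core on both strands. Atf3 and Nupr1 held the same 8 letters as Chac1 and were not called.
Atf3 (chr1:191183416-191183463, minus strand): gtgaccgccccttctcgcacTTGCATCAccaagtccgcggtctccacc
Nupr1 (chr7:126625568-126625585, minus strand): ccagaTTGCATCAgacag
Capitals in the next lines mark the ER stress response element, or its reverse complement, in the 3 chaperone genes that held it and fell.
Hspa5 (chr2:34772020-34772048, plus strand): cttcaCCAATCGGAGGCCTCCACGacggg
Calr (chr8:84847055-84847113, minus strand): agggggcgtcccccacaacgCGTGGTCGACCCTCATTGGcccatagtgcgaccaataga
Creld2 (chr15:88819500-88819558, plus strand): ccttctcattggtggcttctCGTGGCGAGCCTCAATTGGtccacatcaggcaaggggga
The stretches of Trib3, Asns, Nupr1 and Hspa5 are cut shorter because they lie in an annotated exon (GENCODE M21, or after the RefSeq start for Trib3), and the others overlap no annotated exon of their gene. The Atf3 stretch lies before its RefSeq start but in an intron of a longer GENCODE transcript. Dnajb9, the gene that rose, held none of these motifs in its window. The C/EBP-ATF core was present in 5 of 13 ATF4 and amino acid genes that fell and in 2 of 8 that were not called. The ER stress response element was present in 3 of 7 called ER folding genes and in 6 of 14 that were not called, which is 42.9% of each.

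Among the stress regulators, the gene of ATF4 itself was slightly lower, and Ddit3, Trib3 and Chac1 fell further. Of 10 regulators, 5 fell and 5 were not called. That is 50% lower, beside 10.5% of all genes tested and 17% of the abundant genes. Atf4 (GRCm38 chromosome 15, 80255184 to 80257541, plus strand) was at 375, 385 and 380 CPM in knockout libraries, against 428, 434 and 431 CPM in control libraries. Its groups were well separated, at a log2 difference of -0.18 (SE 0.043; edgeR adjusted p = 0.00792). Ddit3, which encodes the stress transcription factor CHOP, was at 105, 105 and 101 CPM in knockout libraries, against 137, 140 and 138 CPM in control libraries, 1.34-fold lower (edgeR adjusted p = 1.73e-05). Trib3 (chromosome 2, 152337422 to 152344032, minus strand) encodes a pseudokinase that damps ATF4 and CHOP in a feedback loop. It had 53.8, 51.6 and 49.2 CPM in knockout libraries, against 75.3, 83.0 and 78.0 CPM in control libraries. That is 1.53-fold lower (edgeR adjusted p = 4.98e-06; log2 fold change -0.61, SE 0.056), and the highest knockout library lay well below the lowest control library. Trib3 carries the response element core shown above, close to its start.

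Chac1, whose product breaks down glutathione, had 12.7, 12.3 and 11.7 CPM in knockout libraries, against 15.6, 15.7 and 15.9 CPM in control libraries (1.28-fold lower, edgeR adjusted p = 0.00327). Cebpg, a dimer partner of ATF4, had 118, 102 and 108 CPM in knockout libraries, against 123, 128 and 122 CPM in control libraries. The first knockout library lay near the controls, and the call (log2 fold change -0.19; edgeR adjusted p = 0.0279) was lost when any of knockout replicates 2 and 3 and control replicates 1 and 2 was left out (up to 0.105). The 5 regulators not called were the transcription factor genes Atf3 and Atf5, the chromatin protein gene Nupr1, Sesn2, whose product restrains mTORC1, and Ppp1r15a, whose product guides the phosphatase that reverses eIF2 phosphorylation. Their log2 fold changes ran from -0.04 for Ppp1r15a to 0.049 for Nupr1. The 95% interval for Atf3 was -0.22 to 0.24 and that for Ppp1r15a was -0.19 to 0.11, so falls as large as that of Trib3 lay outside both. Atf5 had 129, 173 and 132 CPM in knockout libraries, against 141, 150 and 155 CPM in control libraries. Knockout replicate 2 was the high one, and without it Atf5 was called lower (edgeR adjusted p = 0.0116).

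**Figure D2:**
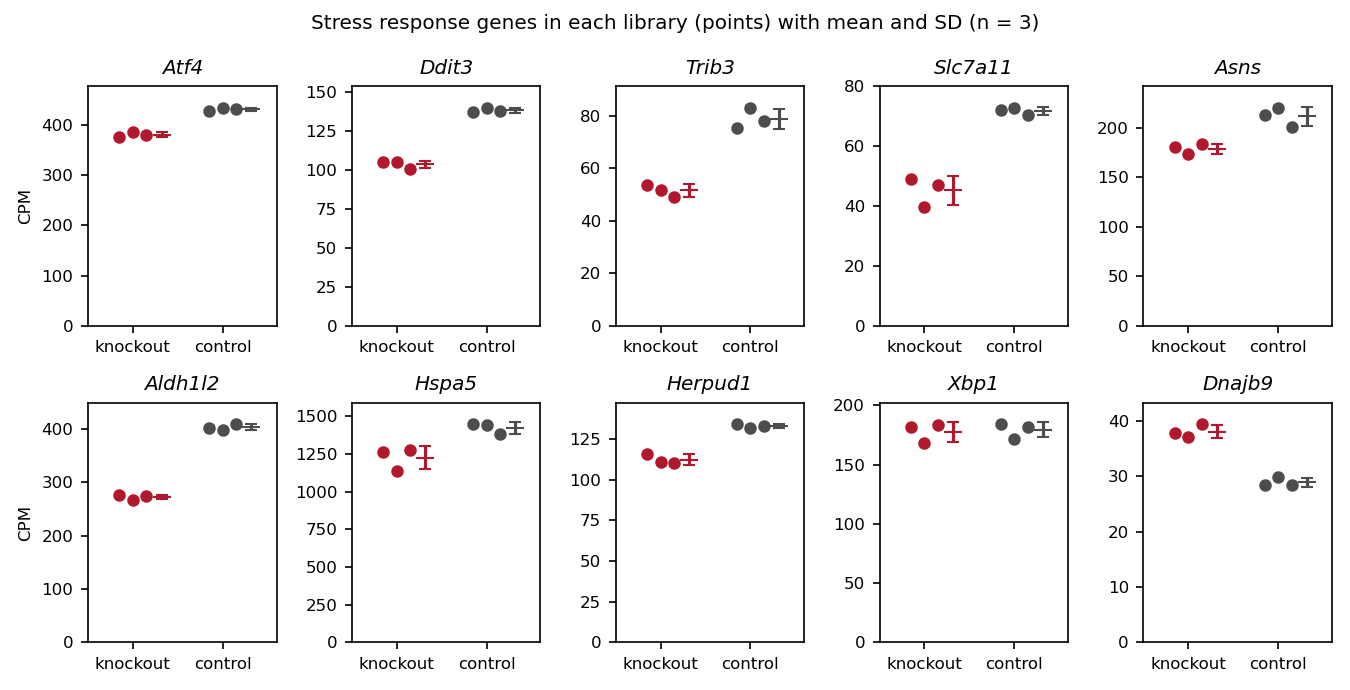
CPM of 10 genes in each knockout library (red) and control library (dark grey), with the mean and SD of 3 libraries beside the points and axes starting at 0. Trib3, Slc7a11 and Aldh1l2 show the groups far apart, Atf4 and Hspa5 a narrow gap, Xbp1 (168 to 183 CPM in knockout, 172 to 184 CPM in control) none, and Dnajb9 the opposite direction.

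Of 6 amino acid transporter genes, 4 fell and 2 were not called. The 66.7% lower stands beside 10.5% of all genes tested and 17% of the abundant genes. Slc7a11 (chromosome 3, 49892526 to 50443614, minus strand) encodes the cystine importer that feeds glutathione synthesis. It was at 49.2, 39.8 and 46.9 CPM in knockout libraries, against 72.1, 72.8 and 70.4 CPM in control libraries, 1.59-fold lower (log2 fold change -0.66, SE 0.069; edgeR adjusted p = 1.60e-05). Slc7a5, which imports leucine and other large neutral amino acids, was at 59.1, 69.8 and 57.1 CPM in knockout libraries, against 81.9, 92.2 and 90.5 CPM in control libraries, 1.42-fold lower (edgeR adjusted p = 4.04e-04). Slc3a2 encodes the heavy chain that carries both of these to the cell surface. It fell less, 1.17-fold, with 168, 176 and 169 CPM in knockout libraries, against 200, 201 and 201 CPM in control libraries (edgeR adjusted p = 0.00167).

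Slc7a3, a carrier of cationic amino acids, was barely expressed, at 0.903, 0.733 and 1.05 CPM in knockout libraries, against 1.85, 1.49 and 1.36 CPM in control libraries. Those levels rest on 27, 23 and 28 reads and on 62, 42 and 36 reads, and the 1.78-fold fall (edgeR adjusted p = 0.013) was not called without control replicate 1 (0.0811). The genes not called were the cationic carrier Slc7a1 and the glutamine and alanine carrier Slc38a2. Slc7a1 had 31.9, 46.9 and 31.4 CPM in knockout libraries, against 34.5, 38.6 and 43.7 CPM in control libraries. Its high value was again in knockout replicate 2, and without that library it was called lower (edgeR adjusted p = 0.0249). Slc38a2 had a log2 fold change of -0.021 with a 95% interval of -0.14 to 0.10, which leaves out the falls of Slc7a11 and Slc7a5.

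Enzymes of amino acid and one-carbon metabolism fell nearly as a block: 7 of 8 were lower and 1 was not called. The 87.5% lower stands beside 10.5% of all genes tested and 17% of the abundant genes. The widest fall among the enzymes was that of Aldh1l2. Aldh1l2 (chromosome 10, 83487450 to 83534140, minus strand), which oxidises formyl-tetrahydrofolate to make NADPH, was at 275, 267 and 273 CPM in knockout libraries, against 402, 398 and 408 CPM in control libraries. This was 1.48-fold lower (log2 fold change -0.57, SE 0.044; edgeR adjusted p = 1.47e-06). Aldh1l2 shares 14.1% of its exonic bases with D10Wsu102e on the opposite strand (43.7 CPM in knockout and 46.1 CPM in control libraries). Shmt2, which moves a carbon from serine to folate, had 68.5, 74.8 and 67.1 CPM in knockout libraries, against 92.2, 91.2 and 95.2 CPM in control libraries (1.32-fold lower, edgeR adjusted p = 9.45e-05). Mthfd2, the next enzyme of that route, had 98.2, 96.5 and 95.3 CPM in knockout libraries, against 119, 124 and 118 CPM in control libraries (1.25-fold lower, edgeR adjusted p = 1.91e-04). All 3 genes act in the mitochondrion, and in all 3 the groups were far apart. Pck2, the mitochondrial enzyme that makes phosphoenolpyruvate, varied little: 145, 144 and 144 CPM in knockout libraries, against 194, 195 and 194 CPM in control libraries (1.35-fold lower, edgeR adjusted p = 8.97e-06).

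Serine synthesis takes 3 enzymes in turn, Phgdh, Psat1 and Psph, and the first and last fell. Phgdh was at 39.7, 44.0 and 39.2 CPM in knockout libraries, against 50.5, 51.3 and 49.5 CPM in control libraries (1.23-fold lower, edgeR adjusted p = 0.00228). Psph was at 64.3, 58.7 and 56.5 CPM in knockout libraries, against 79.0, 80.9 and 72.8 CPM in control libraries (1.3-fold lower, edgeR adjusted p = 5.11e-04). Psph shares 10.4% of its exonic bases with Cct6a on the opposite strand, a more abundant gene at 285 and 296 CPM. Psat1 had 340, 332 and 330 CPM in knockout libraries, against 373, 365 and 346 CPM in control libraries. The groups did not overlap, but the log2 fold change of -0.11 (95% interval -0.21 to -0.013) was not called (edgeR adjusted p = 0.101). Asns, the asparagine synthetase gene and a standard ATF4 target, had 180, 173 and 183 CPM in knockout libraries, against 213, 220 and 201 CPM in control libraries (1.18-fold lower, edgeR adjusted p = 0.0027). Summed over the 8 enzymes, knockout libraries held 1188 to 1210 CPM and control libraries 1485 to 1525 CPM.

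In the ER set, the sensors and Xbp1 gave 0 calls in 4 genes, beside 22.4% of all genes tested. In a group of 4, 0 calls does not set it apart from that share. Xbp1, whose spliced RNA encodes the effector of IRE1, was at 182, 168 and 183 CPM in knockout libraries, against 184, 172 and 182 CPM in control libraries. The groups lay on top of each other, with a log2 fold change of -0.014 (95% interval -0.12 to 0.094; edgeR adjusted p = 0.879). Ern1 had a log2 fold change of 0.18 (0.0095 to 0.36), Eif2ak3 -0.043 (-0.16 to 0.073) and Atf6 -0.10 (-0.21 to 0.0017). Ern1 was called higher without knockout replicate 1 (edgeR adjusted p = 0.0428).

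Of 11 chaperone and cochaperone genes, 5 fell, 1 rose and 5 were not called. That is 45.5% lower, beside 10.5% of all genes tested and 17% of the abundant genes. The 9.09% higher was below the 11.9% of all genes tested. Hspa5 (chromosome 2, 34771970 to 34777547, plus strand) encodes BiP, the main ER chaperone, and is a common readout of ER stress. It had 1263, 1137 and 1279 CPM in knockout libraries, against 1447, 1444 and 1380 CPM in control libraries, 1.16-fold lower (log2 fold change -0.22, SE 0.054; edgeR adjusted p = 0.0114). Without control replicate 1 it was not called (0.0566). Manf, a secreted ER protein that stabilises BiP clients, was at 94.2, 93.7 and 95.8 CPM in knockout libraries, against 123, 118 and 112 CPM in control libraries (1.24-fold lower, edgeR adjusted p = 3.66e-04). Sdf2l1, found in chaperone complexes with BiP, was at 20.6, 22.6 and 22.0 CPM in knockout libraries, against 25.4, 26.0 and 25.4 CPM in control libraries (1.18-fold lower, edgeR adjusted p = 0.0172). Creld2, an ER-stress-induced gene, had 54.1, 56.2 and 54.9 CPM in knockout libraries, against 68.6, 59.4 and 65.8 CPM in control libraries (1.17-fold lower, edgeR adjusted p = 0.0121). In each of these 4 genes the groups were apart, with the least room for Creld2, and the calls of Sdf2l1 (up to 0.0684) and Creld2 (up to 0.0863) were lost in 4 and 2 of the 14 alternative fits. Calr, the lectin chaperone calreticulin, had 1097, 1036 and 1087 CPM in knockout libraries, against 1216, 1171 and 1200 CPM in control libraries (1.11-fold lower, edgeR adjusted p = 0.0286, and up to 0.11 in the 4 alternative fits that lost it).

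Dnajb9 went the other way. It encodes a BiP cochaperone that is known as an XBP1 target and as a brake on IRE1 (chromosome 12, 44205559 to 44210326, minus strand). It was at 37.8, 37.1 and 39.4 CPM in knockout libraries, against 28.4, 29.8 and 28.5 CPM in control libraries. The 1.32-fold rise (log2 fold change 0.40, SE 0.057; edgeR adjusted p = 2.10e-04) was kept in all 14 alternative fits. The other members of the DnaJ family in the set, Dnajb11 and Dnajc3, both had log2 fold changes of -0.12 and were not called. Hsp90b1, Hyou1 and Canx were also not called, at -0.11, -0.10 and -0.16. Hsp90b1 shares 10.3% of its exonic bases with 1810014B01Rik on the opposite strand (1.95 CPM in knockout and 1.5 CPM in control libraries).

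Disulfide formation gave 1 fall in 5 genes and ER-associated degradation 1 in 4. These are 20% and 25%, beside 10.5% of all genes tested and 17% of the abundant genes. In groups this small, 1 fall does not set either apart from those shares. Pdia3, a disulfide isomerase that works with calreticulin, had 611, 571 and 609 CPM in knockout libraries, against 676, 660 and 639 CPM in control libraries (1.1-fold lower, edgeR adjusted p = 0.0487). This call sat at the threshold and was lost in 10 of the 14 alternative fits, where the adjusted p was 0.0554 to 0.175. Pdia4 and Pdia6 had log2 fold changes of -0.14 and -0.11 and were not called. The oxidases that recharge the isomerases, Ero1l and Ero1lb, were not called. Ero1l varied widely, from 153 to 224 CPM in knockout and 184 to 253 CPM in control libraries. Herpud1, a membrane scaffold of the degradation machinery, had 116, 111 and 110 CPM in knockout libraries, against 134, 132 and 133 CPM in control libraries (1.18-fold lower, edgeR adjusted p = 0.00144). It is also the ER gene whose window holds the C/EBP-ATF core. The mannose-recognising factor gene Edem1 (log2 fold change -0.14), the ubiquitin ligase gene Syvn1 (0.17) and Sel1l (-0.065), whose product is the adaptor of that ligase, were not called.

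Levels per kilobase of exonic length, averaged over both groups, put the ER set at the top. Calr led at 394 CPM per kb, followed by Hspa5 at 313, Hsp90b1 at 297, Pdia3 at 200, Canx at 187 and Pdia4 at 179. Atf4 came next at 172 CPM per kb and was the most abundant of its set, ahead of Psat1 at 81.7, Atf5 at 73.6, Asns at 71.3 and Ddit3 at 70.8. The lowest levels were those of Ero1lb at 0.668 and Slc7a3 at 0.325 CPM per kb. Slc7a11, which fell 1.59-fold, was at 4.20 CPM per kb.

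The libraries within a group did not move as one. Relative to the control mean, the median log2 ratio of the 24 ATF4 and amino acid genes was -0.28, -0.29 and -0.32 in knockout replicates 1 to 3, and from -0.01 to 0.013 in control libraries. For the 24 ER folding genes it was -0.10, -0.16 and -0.10 in knockout replicates, and from -0.0067 to 0.016 in control libraries. Knockout replicate 2 held the lowest value of its group for 16 of 24 ER folding genes, yet the highest of its group for 12 of 24 ATF4 and amino acid genes. Atf5, Sesn2, Slc7a1 and Slc38a2 were among those 12, with values above every control library. Other libraries also held many extremes of their group. Control replicate 2 was highest for 14 of 24 ATF4 and amino acid genes, and control replicate 1 for 13 of 24 ER folding genes. Knockout replicate 3 was lowest for 13 of 24 ATF4 and amino acid genes.

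**Figure D3:**
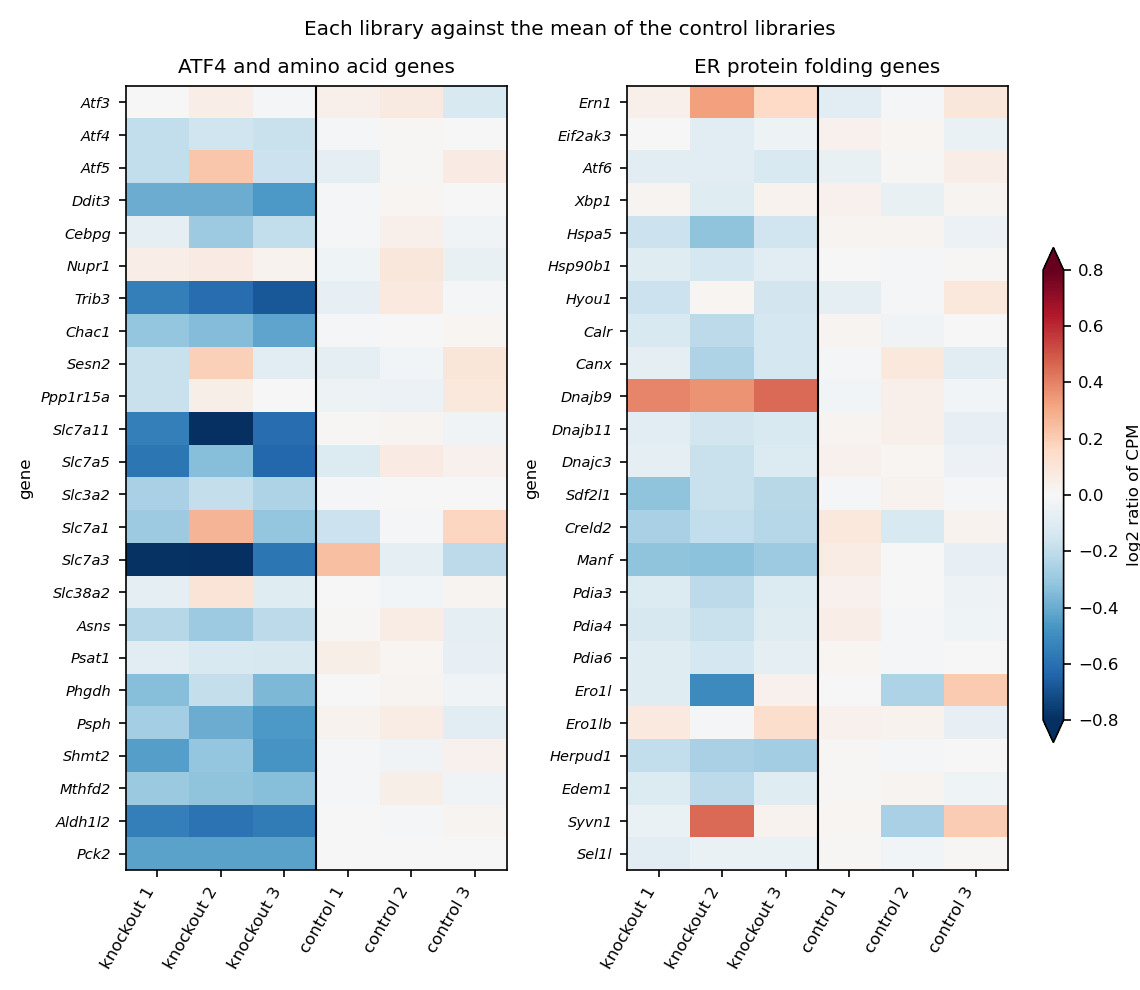
Log2 ratio of CPM in each library (columns, knockout left of the line) to the mean of the 3 control libraries, for the 24 ATF4 and amino acid genes and the 24 ER folding genes (rows); colours saturate at 0.8. The knockout columns are blue for Trib3, Slc7a11, Aldh1l2 and Pck2 in all 3 libraries, while knockout replicate 2 is red for Atf5, Sesn2 and Slc7a1.

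Genes of these pathways outside the 48 were counted in lists chosen by function. As with the 48, earlier results of these data were known when the lists were chosen, so they are not independent support. Of 13 genes of the eIF2 kinases and the eIF2 machinery, 1 rose (7.69%, below the 11.9% of all genes tested) and 12 were not called. It was Eif2b4, a subunit of the factor that reloads eIF2, at 31.0 ± 1.16 CPM in knockout and 26.7 ± 0.0813 CPM in control libraries (SD, n = 3 each). Of 20 other ATF4 targets and stress genes, 8 fell and 2 rose (40% and 10%, beside 10.5% and 11.9% of all genes tested). Gpt2, a mitochondrial alanine aminotransferase, was 1.4-fold lower, Jdp2, a basic leucine zipper repressor, 1.38-fold, and Pycr1, which makes proline, 1.37-fold. Mthfd1l, a mitochondrial folate enzyme of the same list, had a log2 fold change of -0.04 and was not called. The genes that rose were Trp53inp1, 1.2-fold, and the death receptor gene Tnfrsf10b, 1.31-fold, both also known as p53 targets. Leaving out knockout replicate 3, control replicate 1 or control replicate 3 ended both of these calls, and over the alternative fits their adjusted p reached 0.0814 and 0.0982. Of 20 cytosolic aminoacyl-tRNA synthetase genes, 7 fell and 0 rose. All 20 were abundant, so the 35% lower stands beside 17% of the abundant genes. Those with the lowest p were Sars, 1.27-fold lower, Aars, 1.24-fold, and Nars, 1.19-fold. Nars stands in both of these lists.

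Other amino acid transporters did not share one direction: of 13 genes, 4 rose and 3 fell (30.8% and 23.1%, beside 11.9% and 10.5% of all genes tested). The glutamate carrier gene Slc1a3 was 1.45-fold higher and Slc7a2, a cationic carrier, 1.33-fold higher. The leucine carrier gene Slc43a2 had 4.94 ± 0.545 CPM in knockout and 2.46 ± 0.248 CPM in control libraries (SD, n = 3 each; log2 fold change 1.0, edgeR adjusted p = 1.50e-04). Slc38a4 was 1.38-fold lower, Slc38a10 1.15-fold and Slc36a4 1.14-fold.

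Of 20 other ER folding genes, 10 fell and 0 rose, with a median log2 fold change of -0.15. All 20 were abundant, so the 50% lower stands beside 17% of the abundant genes. Serpinh1, the collagen chaperone, had 2016 ± 35.9 CPM in knockout and 2691 ± 50.8 CPM in control libraries (SD, n = 3 each), 1.33-fold lower. Txndc5, a disulfide isomerase, was 1.27-fold lower and the prolyl isomerase gene Fkbp14 1.2-fold. Of 18 tested genes of the translocon and the signal peptidase, which bring proteins into the ER, 8 fell and 0 rose. That is 44.4% lower, beside 10.5% of all genes tested and 17% of the abundant genes. Tram1 was 1.2-fold lower, Ssr1 1.21-fold and Spcs1 1.19-fold. By contrast, of 19 tested genes of ER-associated degradation outside the set, 2 fell and 0 rose, near the 10.5% of all genes tested. Of 16 other ER stress signalling genes, the kinase gene Map3k5 rose 1.4-fold and Creb3 fell 1.13-fold. At 6.25% each way, these calls were below the shares of all genes tested, 11.9% higher and 10.5% lower.

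Stress genes outside the ER were counted last. Of 15 cytosolic heat shock genes, 1 fell (6.67%, below the 10.5% of all genes tested). It was Hspa1b, an inducible chaperone, with 35.9 ± 1.87 CPM in knockout and 43.2 ± 1.13 CPM in control libraries (SD, n = 3 each). Hspa1b is nearly identical to Hspa1a, so reads common to both copies make its count uncertain. Of 13 mitochondrial chaperone and protease genes, 3 rose, 0 fell and 10 were not called. The rises make 23.1%, beside 11.9% of all genes tested and 14.5% of the abundant genes. They were Grpel1, 1.33-fold, and Afg3l2 and Trap1, both 1.22-fold. Hspa9 (log2 fold change 0.04), Hspd1 (-0.014), Hspe1 (-0.06) and Lonp1 (-0.0013) were not called. The mitochondrial enzymes Aldh1l2, Shmt2, Mthfd2 and Pck2 fell in the same cells, and a link to these rises was not tested.

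**Figure D4:**
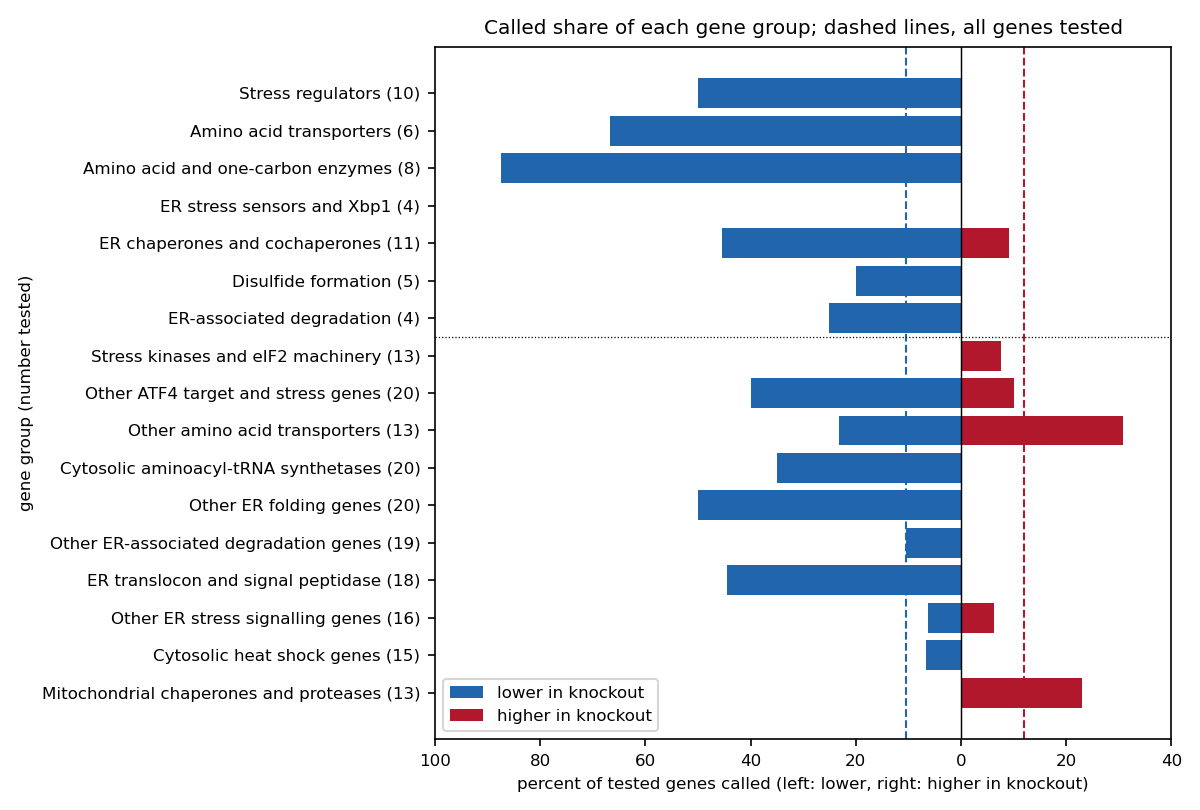
Percent of tested genes called lower (left, blue) or higher (right, red) in knockout cells for the 7 role groups of the 48 genes (above the dotted line) and 10 lists of related genes (below it), with the number tested in brackets; dashed lines mark the 10.5% lower and 11.9% higher of all genes tested. The amino acid and one-carbon enzymes reach 87.5% lower, and the mitochondrial chaperones 23.1% higher.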

How the data were processed

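The 6 RNA-seq libraries keep strand and were made after ribosomal RNA was removed, per the labels' protocols. The deposited table holds raw read counts per Ensembl gene, 49671 rows in 6 columns, matched to samples by the library number in the titles. Per the submitters' processing notes, GRCm38, DESeq2 1.16.0, featureCounts 1.5.1 and STAR 2.5.2b were involved, with no roles stated. How multi-mapping reads were treated, the strand setting and the annotation release: not given in the sources used here. Without the strand setting, reads of genes overlapping on opposite strands cannot be told apart, so overlaps of at least 10% with an expressed partner are given.

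Symbols came from GENCODE M21 (GRCm38), for 49326 identifiers. Groups were tested with the quasi-likelihood test of edgeR 4.0.16 under R 4.3.3 (robust, TMM scaling, filterByExpr, group as the only term), with Benjamini-Hochberg adjustment over 14946 genes. A call is an adjusted p under 0.05. The SE is the size of the log2 fold change over the square root of F. CPM values use TMM factors. Exonic length is the union of all annotated exons. Members and lists were chosen with earlier results of these data known. Values per library are given for called members and for Tcf7l2 and Xbp1, and for each list up to 3 called genes per direction, by p. Sesn2 and Ero1l, and library values of Atf5, Slc7a1, Slc38a2 and Psat1, were chosen after being seen. Alternatives were 3 scalings, 2 filters, DESeq2 1.42.0, limma-voom (limma 3.58.1), a threshold of 0.01, leaving out each library, and leaving out 2 together.

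Counts of 14946 genes were simulated for the same comparison, with 200 genes changed, 50 at each step. There edgeR recovered 48% of genes changed 1.25-fold, 76% at 1.5-fold, 92% at 2-fold and 98% at 4-fold, and 4 of 161 calls were false. The data gave 3346 calls, so the adjusted p bears on unlike numbers of changed genes, and these shares need not hold for the data. No pair of libraries within a group agreed within sampling noise (chi-square per degree of freedom 3.99 to 13.5).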

Additional observations from a re-analysis of the deposited data

How the results depend on the processing

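No paired analysis was possible because the labels number the libraries 1 to 6 and give the groups no shared number. The 16 falls among the ATF4 and amino acid genes were counted again under each scaling, each filter, DESeq2 and limma-voom, and ran from 14 to 17 with 1 library left out. Under an adjusted p of 0.01 they were 14. The falls among the ER folding genes were less steady: 7 in the edgeR fit, 2 without control replicate 1, 3 without knockout replicate 3, up to 9 without control replicate 3, and 2 at an adjusted p of 0.01. The rises there were 1 to 2 with 1 library left out, as were those over all 48 genes, whose falls ran from 16 to 26. The share of all tested genes that was called, 22.4%, became 12.9% at 0.01 and also 12.9% with no filter on low counts, where more genes were tested, and ran from 14.2% (without control replicate 1; 14.3% without knockout replicate 3) to 22.9% with 1 library left out. The median log2 fold change of the ATF4 and amino acid genes ran from -0.31 to -0.26, and was -0.29 without control replicate 3 and knockout replicate 2 together; that of the ER folding genes ran from -0.14 to -0.1. Scaling moved the median of all genes to no more than 0.0028 above and 0.0097 below 0 (-0.0097 with total counts). Of 720 member values under 15 alternatives, 668 kept their side of the threshold, 33 lost a call and 19 gained one. A change of sign with a call in either fit occurred 0 times. Members that were not called did change sign, such as Sesn2 (log2 fold change -0.14 to 0.058) and Ero1l (-0.29 to 0.082). The cause of these shifts was not tested. On simulated counts at this depth, with 200 genes changed, 48% of genes changed 1.25-fold were recovered. Smaller steps, and as many changed genes as were called in the data, were not simulated.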
